A study of Drosophila melanogaster with 3 samples.

Results

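The genes encoding subunits of the proteasome were examined for binding by CG6163, a Drosophila melanogaster protein tagged here with enhanced green fluorescent protein. The set held every protein-coding gene whose symbol begins with Prosalpha, Prosbeta, Rpn or Rpt followed by a digit, which gave 48 of 13945 protein-coding genes on the main chromosome arms. Binding was measured by chromatin immunoprecipitation and sequencing with an antibody against GFP, on chromatin of whole prepupae of the strain CG6163-GFP, sheared by sonication. All 3 libraries were biological replicates of this 1 group, with the same strain and the same insertion targeting CG6163, and the stage within the prepupal period and the sex were not recorded. Whole animals mix all tissues, so a summit that is strong in few cells and one that is weak in many cannot be told apart. No control library was analysed here, and the deposited peak lists carry no read counts, so the depth behind each value is unknown.

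The proteasome degrades proteins marked with ubiquitin. Its barrel-shaped core particle is built of outer alpha rings, whose gate controls entry, and inner beta rings, which hold the cutting sites. A regulatory particle caps the core: its Rpt subunits form an ATPase ring that unfolds substrates, and its Rpn subunits form the scaffold, the ubiquitin receptors and the lid that removes ubiquitin. Drosophila also carries testis paralogs of many subunits, named with a T or an R after the subunit number, which take the place of the ubiquitous subunit in male germ cells. Of the 48 genes, 25 encode core subunits (12 alpha, 13 beta) and 23 encode regulatory subunits (9 Rpt, 14 Rpn), and 32 are ubiquitous members while 16 are testis paralogs. The testis paralogs were taken from their symbols, and expression was not measured here.

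CG6163 summits lay near few proteasome genes. A gene was called bound when a summit of the authors' conservative list of 10894 reproducible peaks lay within 500 bp of any of its annotated starts. By this rule 6 of 48 proteasome genes (12.5%) were bound, against 24.2% of all protein-coding genes. The bound genes were Prosalpha2, Prosalpha3, Rpt3, Rpn3, Rpn5 and Rpn13. All 6 are ubiquitous members, so 6 of 32 ubiquitous genes (18.8%) and 0 of 16 testis paralogs were bound. In the core particle 2 of 25 genes (8.0%) were bound, both of the alpha ring, and 0 of 13 beta genes. In the regulatory particle 4 of 23 genes (17.4%) were bound, 1 of 9 Rpt and 3 of 14 Rpn genes. These counts differ by few genes, and the shares of the core and the regulatory particle were not tested against each other.

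The libraries' own thresholded lists held fewer proteasome genes still. In replicate 1, 4 of 48 proteasome genes (8.33%) were bound, against 18.9% of all genes. In replicate 2, 4 (8.33%) were bound, against 19.7% of all genes. In replicate 3, 5 (10.4%) were bound, against 17.3% of all genes. The mean over the 3 libraries was 9.03% ± 1.2 (SD, n = 3) for proteasome genes and 18.6% ± 1.22 (SD, n = 3) for all genes. The highest library for proteasome genes lay below the lowest library for all genes. The regulatory particle had 3 bound genes in each library, and the core particle had 1, 1 and 2. No testis paralog and no beta gene was bound in any library's own list. Requiring a conservative peak that overlaps a thresholded peak in all 3 libraries left 2 of 48 proteasome genes (4.17%), Rpn3 and Prosalpha3, against 12.1% of all genes.

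**Figure D1:**
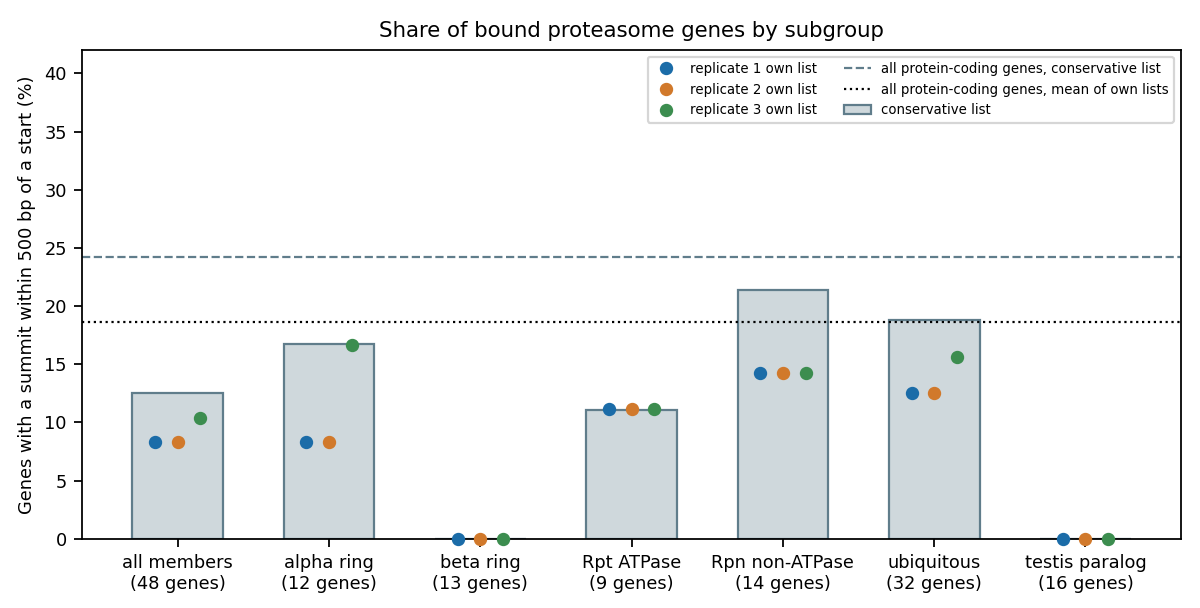
Percent of genes with a summit within 500 bp of a start, by subgroup of the proteasome genes. Bars give the conservative list and points the 3 libraries' own lists, and the lines mark all protein-coding genes (24.2% in the conservative list, 18.6% as the mean of the own lists). Beta ring genes and testis paralogs stand at 0 throughout, and no bar reaches the upper line.

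The strongest summit of the set stood at Rpn3, which encodes a scaffold subunit of the lid. Its signal in the conservative list was 433, rank 1046 of 10894, with a q-value of 0.000201. The peak at chr2L:19051718-19051863 (dm6) was 146 bp wide, and its summit lay 19 bp upstream of the outermost Rpn3 start and 158 bp upstream of a second start. In the libraries' own lists the signals were 186 in replicate 1, 152 in replicate 2 and 121 in replicate 3, with summits 4 bp downstream, 13 bp downstream and 14 bp upstream of the outermost start. All 3 libraries therefore placed the summit within 14 bp of the Rpn3 start. The signal, which was not rescaled between libraries, was highest in replicate 1. The interval between Rpn3 and l(2)37Bb, a gene transcribed away from it on the opposite strand, measured 178 bp, and the l(2)37Bb start lay 159 bp from the conservative summit. A single summit in such a head-to-head promoter counts for both genes.

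Rpn5, another scaffold subunit of the lid, had a conservative summit with signal 86.6, rank 8786 and a q-value of 0.167. The peak at chr3R:5789090-5789459 had its summit 218 bp upstream of the Rpn5 start, inside an intron of Hat1, a histone acetyltransferase gene whose start was nearer, at 109 bp. No library's own thresholded list held this peak. In the longer ranked lists, which keep weak peaks, the strongest Rpn5 peak had signals of 25.9, 31.5 and 38.7 in replicates 1, 2 and 3. The call at Rpn5 thus rests on the list derived from all 3 libraries and on none of the libraries alone. Rpt3, an ATPase of the ring, had a pair of conservative summits. The stronger, at chrX:11124459-11124828, had signal 150.0, rank 4961 and a q-value of 0.00358, lay 457 bp upstream of the outermost Rpt3 start and fell in the 5′ UTR of CG11122, whose start was 82 bp away. The weaker, at chrX:11124668-11125037, lay 248 bp upstream with signal 23.8, rank 10426 and a q-value of 0.859. Replicate 1 (signal 49.7, summit 414 bp upstream) and replicate 2 (signal 50.6, summit 457 bp upstream) held the stronger peak in their own lists. Replicate 3 had a ranked peak of signal 42.8 that missed the authors' threshold. Both Rpt3 summits were nearer to the CG11122 start than to an Rpt3 start.

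The sequence under 3 of the regulatory summits, outside UTRs, is shown so that these promoters can be compared base by base. The stretches come from the RefSeq genome sequence of dm6, plus strand, 5′ to 3′, with 11 bases around the conservative summit in capitals. They span chr2L:19051721-19051789 for Rpn3, chr3R:5789225-5789325 for Rpn5 and chrX:11124803-11124903 for the weaker Rpt3 summit.
Rpn3: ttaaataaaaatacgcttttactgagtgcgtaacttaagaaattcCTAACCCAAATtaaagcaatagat
Rpn5: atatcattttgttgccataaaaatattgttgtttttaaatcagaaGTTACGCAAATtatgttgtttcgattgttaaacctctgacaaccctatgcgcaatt
Rpt3: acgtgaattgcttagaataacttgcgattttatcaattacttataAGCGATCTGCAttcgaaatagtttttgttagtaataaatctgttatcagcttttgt
The share of A and T was 72.5% in the Rpn3 stretch, 70.3% at Rpn5 and 71.3% at Rpt3, against a median of 62.4% over the 101-bp windows around 10892 conservative summits. Stretches read in the same way at Prosalpha2 (48.5%) and at the replicate 3 summit of Rpt5 (46.3%) lay below that median. The Prosalpha2 summit lay in a coding exon of CG5245, whereas those of Rpn3 and Rpt3 shown here were intergenic and that of Rpn5 intronic. Cut at annotated UTRs, the stretches held only 69 bases at Rpn3, 66 at Prosalpha2 and 41 at Rpt5. The median is over full windows with UTRs kept, so the shares are not strictly alike in measure. None of the 6 promoter motifs described further on was found whole in these stretches. At Rpt5 this reflects the cut, since the stretch (chr3R:23752835-23752875) begins inside the TATCGATA element described further on. The Rpn5 and Rpt3 peaks are 370 bp wide, as were 75.6% of conservative peaks, and nearly all peaks of that width have their summit at the middle. Such a width does not show how closely a position within the peak is known.

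The remaining bound regulatory gene was Rpn13, which encodes a ubiquitin receptor of the particle's base. Its conservative peak at chr2R:13960366-13960735 had signal 89.4, rank 8595 and a q-value of 0.145. The summit lay 147 bp upstream of the outermost of 3 Rpn13 starts and nearer, at 124 bp, to the divergent start of CtsL1, a lysosomal protease gene. In the libraries' own lists the peak had signal 38.2 in replicate 1 (summit 61 bp upstream) and 48.9 in replicate 2 (summit 65 bp upstream). Both of those summits were nearest to Rpn13. Replicate 3 had a ranked peak of signal 20.3 only, so its value was the lowest of the 3.

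In the core particle the better supported gene was Prosalpha3, an alpha ring subunit. Its peak at chr2R:20994697-20995066 had signal 171, rank 4229 and a q-value of 0.00194. The summit lay 18 bp upstream of the single Prosalpha3 start, with no other gene's start within 500 bp. The start of dgt3, on the opposite strand, lay just beyond that limit. The libraries' own signals were 59.9, 59.6 and 56.5 in replicates 1, 2 and 3, with summits 59, 18 and 42 bp upstream. The 3 signals were thus nearly equal here, whereas at Rpn3 the highest was 186 and the lowest 121. Signals were not rescaled between libraries, so neither spread measures how well the libraries agree. Prosalpha2, the other bound alpha gene, had a weaker peak at chr3R:12430975-12431344, with signal 109.8, rank 7188 and a q-value of 0.0489. Its summit lay 161 bp upstream of the Prosalpha2 start, within a coding exon of the upstream gene CG5245. Of the own lists only that of replicate 3 held it, with signal 39.3 and a q-value of 0.0602. Replicates 1 and 2 had ranked peaks of nearly the same signal, 35.2 and 39.1, which did not pass the reproducibility threshold of those lists.

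**Figure D2:**
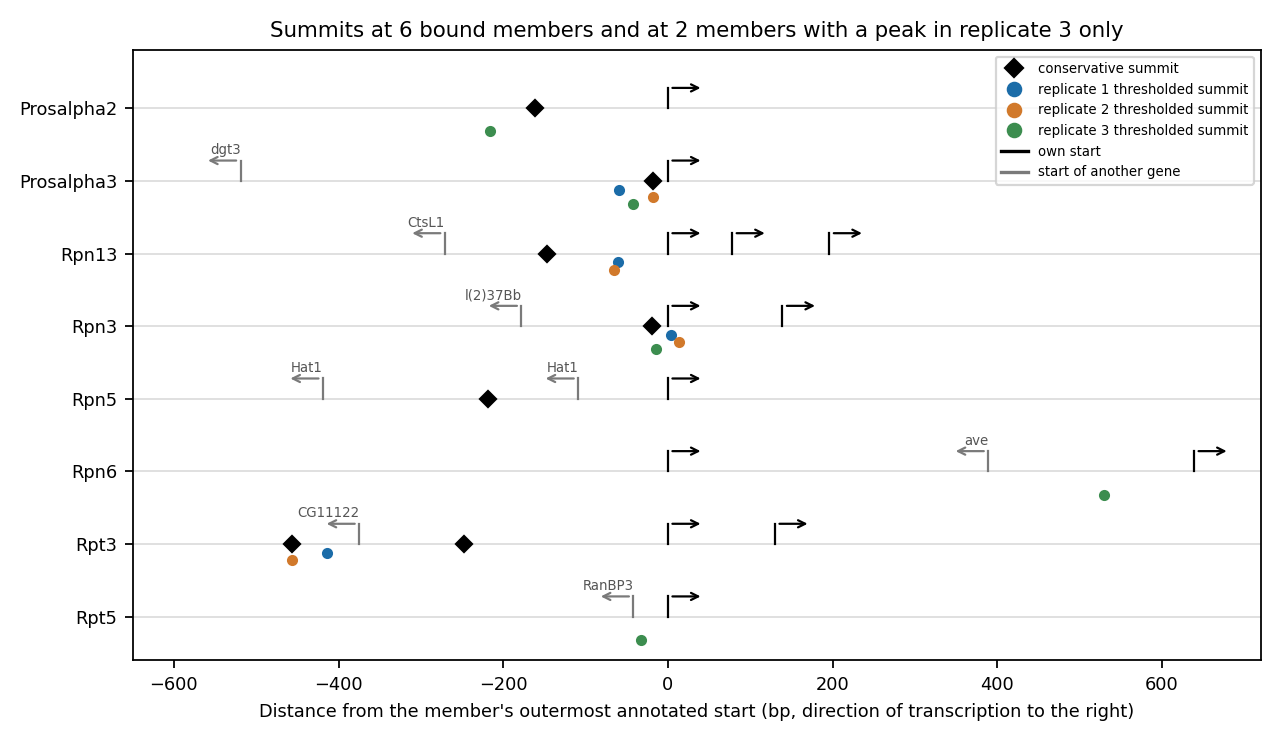
Summit positions in bp relative to the outermost start of each gene, with transcription of the proteasome gene to the right, for the 6 bound genes and for Rpn6 and Rpt5, which were bound in the own list of replicate 3 alone. Diamonds mark conservative summits, circles the libraries' thresholded summits, and arrows annotated starts. Summits of all 3 libraries cluster at the starts of Rpn3 and Prosalpha3, while those of Rpt3, Rpn5 and Rpn13 lie between or beyond divergent starts.

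Of the 6 bound genes, Rpn3 alone had a signal above the median of all bound genes. Taking the strongest summit of each gene, the 6 signals ran from 86.6 to 433 with a median of 129.9, against a median of 173 over all 3371 bound genes. Rpn3 stood within the top 15.5% of bound genes and Prosalpha3 at 50.6%, near the middle. Rpt3 at 58.0%, Prosalpha2 at 78.5%, Rpn13 at 89.0% and Rpn5 at 90.2% lay in the lower part. Between Rpn13 and Rpn5 the signals, 89.4 and 86.6, could not be ordered, since the conservative list gives 1 value each and no spread.

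Only replicate 3 held 2 further genes in its own list, and neither was in the conservative list. Rpn6, a lid subunit that clamps the regulatory particle to the core, had signal 68.1, rank 2683 of 5844, with the summit 109 bp upstream of its inner start. Replicates 1 and 2 had no ranked peak within 500 bp of either Rpn6 start. Rpt5, an ATPase whose tail helps to open the core gate, had signal 59.2 in replicate 3 and ranked peaks of 22.2 and 25.3 in replicates 1 and 2. Its summit lay 33 bp upstream of the Rpt5 start, and the start of RanBP3 was nearer. Among the 5 genes bound in replicate 3, the signal at Rpn6 was thus second to that at Rpn3.

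The ranked lists show how the unbound genes stood below the threshold. A ranked peak of any strength lay within 500 bp of 26, 25 and 24 of 48 proteasome genes in replicates 1, 2 and 3, or 54.2%, 52.1% and 50%, against 57.1%, 56.0% and 62.8% of all genes. A peak in all 3 ranked lists was found at 15 proteasome genes (31.2%), against 41.5% of all genes. These 15 were all ubiquitous, so the share was 46.9% of 32 ubiquitous genes and 0 of 16 testis paralogs. Within the regulatory particle 11 of 23 genes had one, and within the core 4 of 25. Prosbeta7, a structural beta subunit, was the 1 beta gene among them, with signals of 30.4, 22.8 and 17.1. Rpn11, the enzyme that removes ubiquitin, had 23.5, 22.3 and 18.8. Rpt4, a further ATPase, had 23.4, 16.3 and 23.2. In replicate 1 Prosbeta7 lay above the bound gene Rpn5 (25.9), and in replicates 2 and 3 below it (31.5 and 38.7). Rpn11 and Rpt4 lay below Rpn5 in each library. None of these peaks passed a library's threshold.

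The catalytic beta subunits differed between libraries. Prosbeta5, which carries the chymotrypsin-like site, had a ranked peak of signal 47.2 in replicate 1 and none in replicates 2 and 3. Prosbeta2, with the trypsin-like site, had one of 41.9 in replicate 3 and none in the others. Prosbeta1, with the caspase-like site, had signals of 7.66 and 30.0 in replicates 1 and 2 and none in replicate 3. None of these passed a library's threshold, and each rested on 1 or 2 libraries. Prosbeta3, Prosbeta4 and Prosbeta6, which have no active site, had ranked peaks of at most 11.5 where they had any. In the alpha ring Prosalpha4 had ranked peaks of 5.96, 27.7 and 26.3, and Prosalpha5 a single one of 17.8 in replicate 1. No ranked peak of any library lay near Prosalpha1, Prosalpha6 or Prosalpha7.

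Among the other regulatory genes, the ATPase genes Rpt2 and Rpt4 had peaks in all 3 ranked lists, Rpt6 in 1 (13.2 in replicate 2), and Rpt1 in none. Of the large base scaffold genes, Rpn1 had 19.5, 20.9 and 3.55, and Rpn2 had 23.0 and 29.2 in replicates 1 and 2 and none in replicate 3. The lid genes Rpn7 (12.2, 25.0 and 30.4) and Rpn9 (18.4, 12.8 and 15.2) had weak peaks in all libraries, and Rpn8 had 18.7 and 25.5 in replicates 1 and 2. The ubiquitin receptor gene Rpn10 and the lid gene Rpn12 had no ranked peak in any library.

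**Figure D3:**
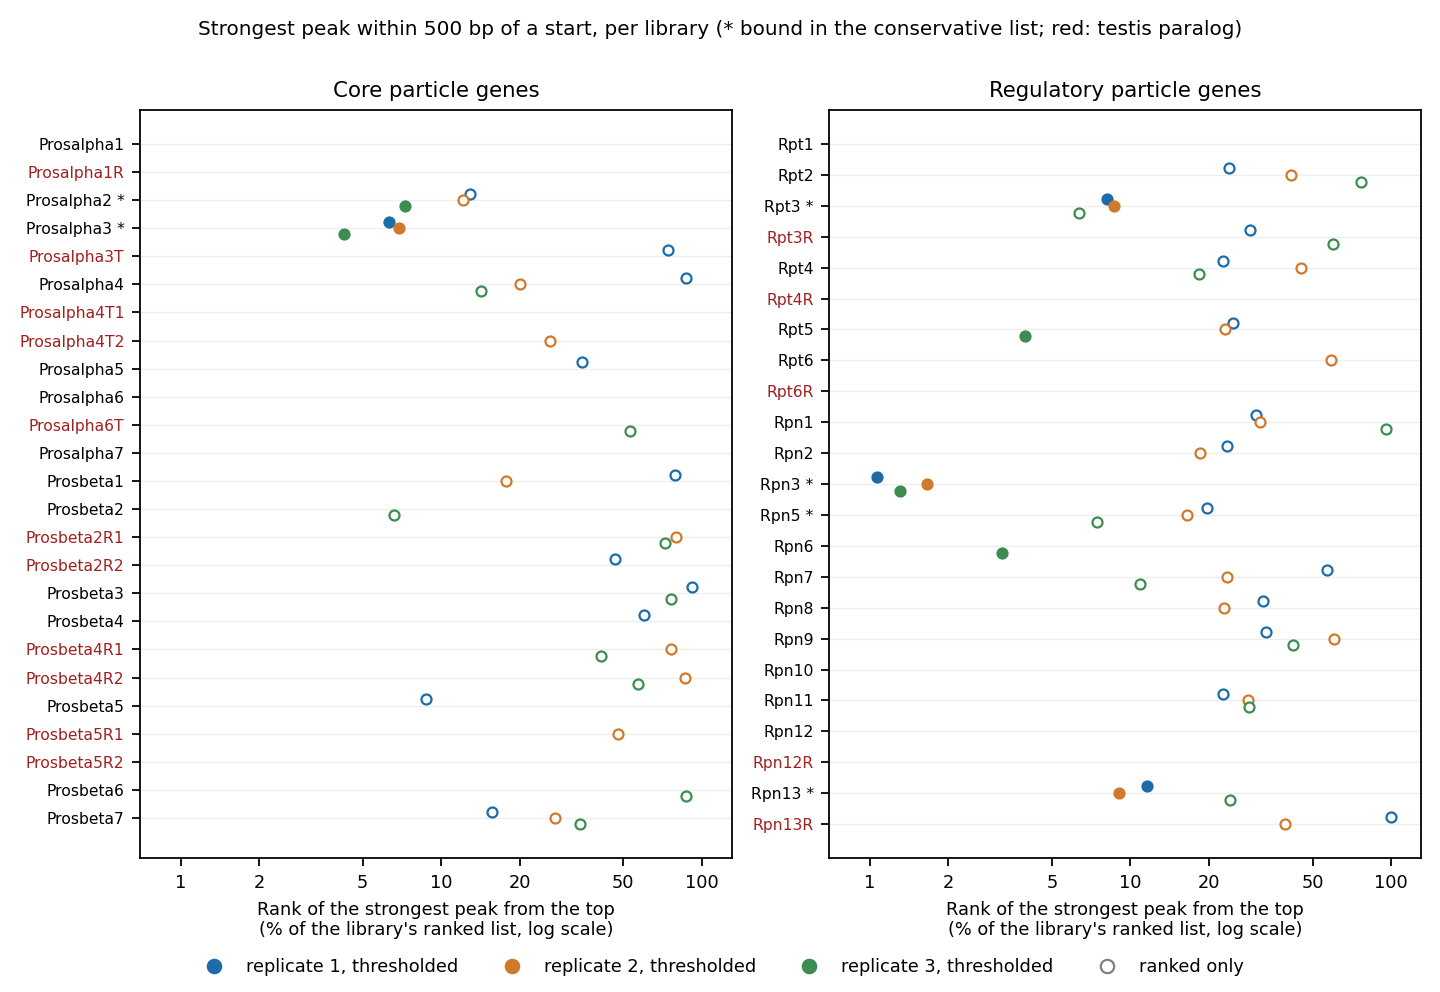
Rank of the strongest peak within 500 bp of a start of each proteasome gene, as percent from the top of each library's ranked list (log scale, left is stronger). Filled points passed the library's threshold and open points did not, a missing point means no ranked peak, stars mark the 6 genes bound in the conservative list, and red names mark testis paralogs. Rpn3 stands apart at 1.07%, 1.66% and 1.31%, and no testis paralog has a point left of 25%.

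The testis paralogs were compared with their ubiquitous counterparts in 16 pairs. The 11 core paralogs are Prosalpha1R, Prosalpha3T, Prosalpha4T1, Prosalpha4T2, Prosalpha6T, Prosbeta2R1, Prosbeta2R2, Prosbeta4R1, Prosbeta4R2, Prosbeta5R1 and Prosbeta5R2, and the 5 regulatory ones are Rpn12R, Rpn13R, Rpt3R, Rpt4R and Rpt6R. None was bound in the conservative list or in a library's own list. Of the 12 ubiquitous genes with such a paralog, 3 were bound (Prosalpha3, Rpn13 and Rpt3), and of the 20 without one, 3 were bound (Prosalpha2, Rpn3 and Rpn5). Ranked peaks lay near 4, 6 and 5 of 16 paralogs in replicates 1, 2 and 3. The strongest was 20.2 in replicate 1 (Rpt3R), 23.4 in replicate 2 (Prosalpha4T2) and 15.4 in replicate 3 (Prosbeta4R1). The lowest values at the 6 bound genes, which were chosen for their peaks, were 25.9, 31.5 and 20.3 in the same libraries. Prosalpha1R, Prosalpha4T1, Prosbeta5R2, Rpn12R, Rpt4R and Rpt6R had no ranked peak in any library.

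The paralogs also lay farther from summits. The median distance from a start to the nearest conservative summit was 11234 bp for testis paralogs and 3336 bp for ubiquitous genes, against 4642 bp for all protein-coding genes. A summit within 5000 bp was found for 4 of 16 testis paralogs (25.0%) and for 20 of 32 ubiquitous genes (62.5%), against 51.7% of all genes. In 13 of 16 pairs the paralog was the farther gene. In the other 3 pairs the paralogs Prosbeta2R2 (3494 bp), Prosbeta4R1 (3523 bp) and Prosbeta4R2 (1175 bp) were nearer than Prosbeta2 (5318 bp) and Prosbeta4 (11268 bp). Prosbeta4R1 and Prosbeta4R2 are adjacent genes, so a single summit sets both of their distances. Rpt4R was the farthest of all 48 genes, at 61024 bp. The nearest summit lay between 500 and 1000 bp away for 0 of 48 proteasome genes, against 587 of 13945 protein-coding genes. That share is so small that a lack among 48 genes cannot be read. The nearest unbound gene was Prosbeta6, at 1105 bp.

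**Figure D4:**
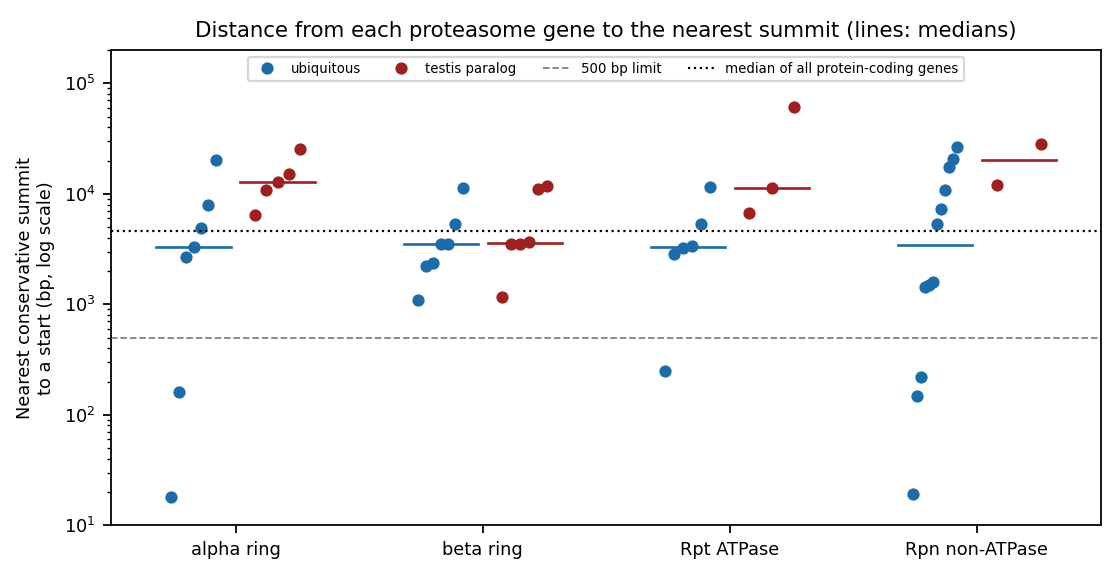
Distance in bp (log scale) from each proteasome gene to the nearest conservative summit, by ring or particle part, for ubiquitous genes and testis paralogs. Short lines are medians, the dotted line marks the median of all protein-coding genes (4642 bp) and the dashed line the 500 bp limit. The 6 points under the limit are all ubiquitous genes, and the next point lies at 1105 bp.

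Promoter layout bears on how the calls are read, since a summit between divergent starts counts for both genes. A head-to-head neighbour, here a protein-coding gene on the opposite strand with its start within 500 bp upstream, was found for 24 of 48 proteasome genes (50%), against 27.4% of all genes. Among proteasome genes with such a neighbour 4 of 24 (16.7%) were bound, against 36.0% of all genes of that layout. Among those without one 2 of 24 (8.33%) were bound, against 19.7% of such genes overall. All 4 bound regulatory genes had a head-to-head neighbour and both bound core genes had none. For Prosalpha3 this rests on the 500 bp limit, since the opposite-strand start of dgt3 lay upstream just beyond it. The split between bound core and bound regulatory genes thus depends on where that limit is set. The testis paralogs rarely had a head-to-head neighbour, 3 of 16, whereas 21 of 32 ubiquitous genes did. Of the genes with 1 annotated start, 3 of 36 proteasome genes (8.33%) were bound, against 17.0% of all such genes. With 2 or more starts 3 of 12 (25.0%) were bound, against 44.0%. The share of proteasome genes lay below that of all genes in each of these 4 layouts, with the unbound testis paralogs counted in. Among ubiquitous genes alone 4 of 21 (19.0%) with a neighbour and 2 of 11 (18.2%) without one were bound. With 1 start it was 3 of 22 (13.6%), and with 2 or more starts 3 of 10 (30.0%). For ubiquitous genes without a neighbour or with 1 start the gap to all genes was therefore small. Counting a gene only where one of its own starts was the nearest start to the summit left Prosalpha2, Prosalpha3 and Rpn3, 3 of 48 (6.25%), against 19.7% of all genes.

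Some of the motifs searched were more frequent among the ubiquitous genes than among all promoters. The one with the widest gap is given first, though most of the genes lacked it. The DNA replication-related element, TATCGATA, is bound by the factor Dref and is common in promoters of housekeeping genes in Drosophila. Its letters read the same on both strands. Within 250 bases before to 50 bases after the outermost start, it was present in 12 of 32 ubiquitous proteasome genes (37.5%) and in 0 of 16 testis paralogs, against 9.36% of 13945 protein-coding promoters. The genes were Prosalpha3, Prosalpha5, Prosalpha6, Prosbeta1, Prosbeta2, Prosbeta6, Rpn3, Rpn7, Rpn9, Rpn12, Rpn13 and Rpt5. Of them 3 (25.0%) were bound, Prosalpha3, Rpn3 and Rpn13, against 29.0% of all genes with the element. Of the 36 proteasome genes without it 3 (8.33%) were bound, against 23.7% of all such genes. These 36 include all 16 testis paralogs, none of which was bound. The shares with and without the element thus also differ in the class of gene, and the 2 cannot be told apart here. The sites of 8 of the 12 genes are shown from the RefSeq genome sequence of dm6 on the strand of the gene, 5′ to 3′, with the element in capitals.
Prosalpha6: ccgaatccctTATCGATAcccgatacac
Prosbeta2: catgaatataTATCGATAcaatatcgat
Prosbeta6: tatgtataccTATCGATAacgtttaagc
Rpn3: gttatcggagTATCGATAtcgaaaaggc
Rpn7: cggtataattTATCGATAattttggggt
Rpn9: cccggttaaaTATCGATAttctcgcgga
Rpn12: tgttaaaataTATCGATAttaaagcaca
Rpt5: tcgctgtcacTATCGATAagcgccggcg
The first base of the element stood 16 bases upstream of the start at Prosalpha6 (chr2L:10221325-10221352, plus strand), 10 upstream at Prosbeta2 (chr3L:14999931-14999958, plus strand) and 44 upstream at Prosbeta6 (chr3L:16610445-16610472, minus strand). It stood 197 upstream at Rpn3 (chr2L:19051583-19051610, plus strand), 216 upstream at Rpn12 (chr3L:16582802-16582829, plus strand) and 46 upstream at Rpt5 (chr3R:23752820-23752847, plus strand). At Rpn7 (chr3R:22462034-22462061, minus strand) and Rpn9 (chr3R:23733419-23733446, minus strand) it lay 3 and 26 bases downstream. At Rpn3 the element and the summit, 19 bases upstream, were therefore apart, while at Rpt5 the summit in replicate 3 stood 33 bases upstream, within the same short interval as the element. A match is a description of the letters and does not show that a factor was bound.

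The other 5 motifs, searched on both strands, matched fewer ubiquitous genes, apart from the TATA box. Motif 1 of Drosophila core promoters, GGTCACAC, was found in 5 of 32 ubiquitous genes (15.6%) and no testis paralog, against 7.7% of all promoters. The antioxidant response element, TGACNNNGC, bound by the proteasome regulator cap'n'collar, was found in 5 ubiquitous genes (15.6%) and 1 testis paralog, against 8.63% of all. The E-box CAGCTG was found in Rpt3 and Rpt3R only, 2 of 48 genes (4.17%), against 17.7% of all. The TATA box, TATAAA, was found in 18 of 48 (37.5%), against 45.8%. The GAGA element, GAGAGA, was found in 3 testis paralogs (Prosalpha3T, Prosbeta2R2 and Rpt4R) and 0 ubiquitous genes, against 12.3% of all promoters.

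**Figure D5:**
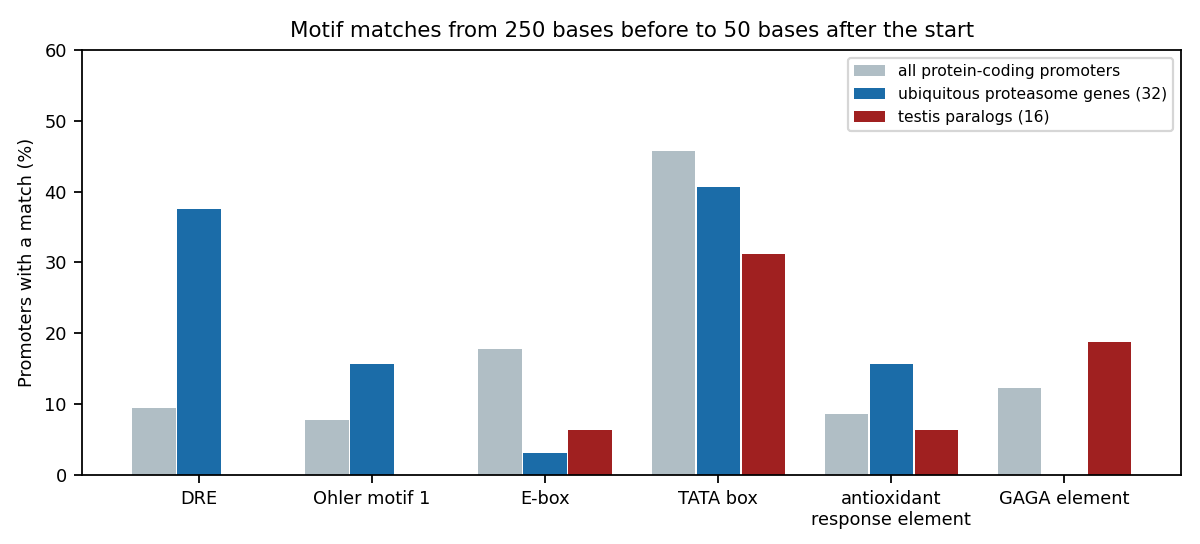
Percent of promoters, from 250 bases before to 50 bases after the outermost start, that hold each of 6 motifs on either strand. Grey bars are all 13945 protein-coding promoters, blue bars the 32 ubiquitous proteasome genes and red bars the 16 testis paralogs. The DNA replication-related element (DRE) stands at 37.5% in ubiquitous genes against 9.36% of all promoters and at 0 in testis paralogs.

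Genes that work with the proteasome, and genes of other multi-subunit complexes, were listed by function and read by the same rule. Of 58 listed genes with a match in the annotation, 16 (27.6%) were bound, against the 24.2% of all genes given above, and 5 were bound in all 3 libraries' own lists. Among assembly and associated factors 2 of 9 (22.2%) were bound, Pomp (signal 188), the chaperone of core assembly, and PI31 (121), a proteasome regulator. Among ubiquitin and unfolding genes 4 of 9 (44.4%) were bound, the ubiquitin genes Ubi-p63E (112) and RpL40 (61.3) and the unfoldase cofactor genes Npl4 (24.1) and Ufd1 (163). Among genes of the pathway that controls proteasome gene transcription 3 of 7 (42.9%) were bound. These were cnc (367), which encodes the activating factor cap'n'collar, its inhibitor Keap1 (38.1), and Hrd3 (471), a subunit of the ubiquitin ligase of the endoplasmic reticulum. The cnc and Hrd3 peaks were held by all 3 own lists, and the Keap1 peak by that of replicate 2 alone.

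The remaining lists held relatives of the lid and a chaperonin, and their shares lay on both sides of the 24.2% of all genes. Of the COP9 signalosome, a complex that removes the ubiquitin-like protein Nedd8, 2 of 9 genes (22.2%) were bound, alien (signal 734) and CSN5 (101), its catalytic subunit. Of the translation initiation factor eIF3, 2 of 16 genes (12.5%) were bound, eIF3a (224) and eIF3h (454). Of the chaperonin CCT, a further multi-subunit ring, 3 of 8 genes (37.5%) were bound, CCT3 (141), CCT5 (92.9) and CCT8 (165). In none of these complexes, nor in the proteasome, was more than a part of the subunit genes bound.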

How the data were processed

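Anti-GFP ChIP-seq of whole prepupae gave 3 libraries of 1 group, for which the authors deposited peak lists on dm6. The labels name the assembly and the file names describe lists ranked and thresholded by the irreproducible discovery rate (IDR), while which aligner and which caller made the peaks was not stated in what was read here. Per the file columns, the deposited lists hold a signal value for each peak, an IDR score up to 1000, −log10 q-values, −log10 IDR values and the summit's offset. Signals were not rescaled, and ranks are read only within a list. In ranked lists of the whole series, 32 columns for each compared set were not used. Each library's peaks were read from its own lists, and the conservative list is the authors' and covers the replicates together. Starts were those of Ensembl release 115 (dm6 coordinates, 99.6% of 30662 coding sequences begin with ATG in the genome sequence used). Counts were made with Python 3.11.15 and pandas 2.3.3, and the overlap functions were tested on simulated peaks. No significance test was run: 1 group without control allows none between conditions, and members are read against all 13945 genes. Members and lists were chosen with earlier results of these data known. Named in the text are every bound gene, every testis paralog, each remaining gene by subunit class, genes whose start was nearest a summit and bound genes of the function lists. Rpn6 and Rpt5 were added for their peaks in replicate 3. Proteins were not analysed here.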

Additional observations from a re-analysis of the deposited data

How the results depend on the processing

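The testis paralogs stayed at 0 bound genes in each of the 11 alternatives to the 500 bp rule and the conservative list. Alternatives that only narrow the calls could not have changed this. Nor could the 1000 bp window, as the nearest conservative summit to a paralog lay 1175 bp away. The other thresholded lists of the whole series could have, and they gave 0 as well. The 6 bound genes, all ubiquitous, became 3 at an IDR limit of 0.001 (Prosalpha3, Rpn3, Rpt3), 3 with the gene's own start nearest (Prosalpha2, Prosalpha3, Rpn3) and 2 with a peak in all 3 libraries (Prosalpha3, Rpn3). The core count of 2 became 1 at that IDR limit and 1 with a peak in all 3 libraries. The regulatory count of 4 became 2 with a 200 bp window, 2 at the IDR limit, 2 at a q-value limit of 0.05, 1 with the own start nearest and 1 with a peak in all 3 libraries. Each of these settings counts a subset of the same peaks by construction, and over all 11 alternatives the share of all genes ran from 12.1% to 28.4%. It was 16.9% at the IDR limit, 18.4% with the 200 bp window and 19.1% at the q-value limit. The other thresholded lists of the whole series gave 5, 5 and 9 bound genes, against 21.2%, 21.5% and 26.8% of all genes. The last added Prosbeta7, Rpn8 and Rpt5. Its 9 bound genes were all among the 32 ubiquitous genes, so the share of that class was not below that of all genes there. Leaving out each library in turn, the bound genes with a peak in all remaining libraries numbered 2 to 4: without replicate 3, Rpt3 and Rpn13 joined. The mean count in the libraries' own lists, 4.33, ran from 4.0 to 4.5 with each library left out, and was 3.33 with a 200 bp window and 4.67 with a 1000 bp window. Without read counts or a control, a missing summit says only that none passed the authors' limits.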

Other observations

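The longest word shared by the Rpn3 and Rpn5 summit stretches on either strand was searched after the sequences had been seen. It had 10 bases, tgcgtaactt as read at Rpn3 and aagttacgca as read at Rpn5. Of 10892 windows of 101 bases around conservative summits 3 held it, which includes both of these, and of 13945 windows of the same length around outermost starts 1 did. Its first 8 bases, tgcgtaac, were in 19 summit windows (0.174%) and in 15 start windows (0.108%). The other words of 8 bases within it went the other way. For gcgtaact the shares were 0.129% of summit windows and 0.143% of start windows, and for cgtaactt 0.11% and 0.129%. Of the bound proteasome genes, the peaks at Rpn3 and Rpn5 alone held any of these words, which were taken from their own stretches. No explanation was tested.

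By chromosome arm, bound proteasome genes numbered 1 of 8 on 2L, 2 of 13 on 2R, 0 of 7 on 3L, 2 of 14 on 3R and 1 of 6 on X. The share of all genes bound was not counted by arm, only over all arms together (24.2%), so no difference between arms can be read from these counts.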
